A study of Mus musculus with 10 samples.

Results

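Kinesins are motor proteins that walk along microtubules on the energy of ATP. One part of the family builds and moves the mitotic spindle and is made by dividing cells; another part, with the kinesin light chains as cargo adaptors, carries vesicles, organelles and RNA in cells of every kind; a few members work in cilia and signalling. In adult liver most hepatocytes do not divide, so spindle motors are low there and high in proliferating liver tumours, while conventional transport kinesins are present in the resting cell. The 46 kinesin genes described here are the protein-coding genes of the RefSeq table whose symbols begin with Kif, Kifc or Klc in the usual numbering, out of 21631 protein-coding genes on the autosomes and X. They were divided by known role into 15 mitotic genes, 21 transport genes (17 motor chains and the 4 light chains Klc1 to Klc4) and 10 others.

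Open chromatin was read by ATAC-seq, in which a transposase inserts sequencing adapters into accessible DNA, in 10 libraries of frozen liver tumours taken from FVB mice when they died. The 3 groups differ in Arid1a, which encodes a subunit of the SWI/SNF chromatin remodelling complex. Homo tumours (3 libraries, about 100 days of age) carried 2 floxed Arid1a alleles (Arid1aflfl) with Alb-cre, Het tumours (3 libraries, about 70 days) carried 1 floxed and 1 intact allele (Arid1afl/+) with Alb-cre, and WT tumours (4 libraries, about 55 days) carried 2 floxed alleles and no Cre. All groups also carried LAP-tta, a tetracycline-regulated activator under a liver promoter, and TRE-MYC, a MYC transgene that is switched on when doxycycline is withdrawn. Alb-cre acts in cells of the hepatocyte lineage, so other cells of a tumour keep Arid1a. Age and Cre follow the groups and cannot be told apart from the Arid1a genotype. Whether the libraries of a group are different mice is not stated in the labels, and p-values here cover the spread between libraries, which may be technical. The study asked how loss of Arid1a acts on liver cancer.

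A gene was counted as having a gene-end peak in a library when any base of a deposited peak lay within 1000 bp of either end of the gene. Peaks had been called in each library on its own, so the measure is present or missing. Depth, recovered from the lists as background tags per 200 bp, ran from 0.464 (Homo 2) to 1.75 (WT 1), and the lists held 1748 (Homo 2) to 9587 (Homo 3) peaks. Homo 3 stood apart from Homo 1 and Homo 2, with more peaks than any other library, and the Homo means from the deposited lists are also given without it. A missing peak does not show closed chromatin, since a shallow library loses weak peaks. In bulk tumour, fewer cells with an open promoter and less opening per cell cannot be told apart. Of 10 hepatocyte marker genes, 6 had a gene-end peak in at least 1 library, with counts of 1, 0 and 4 in Homo 1 to 3, 0 in every Het library, and 4, 4, 0 and 1 in WT 1 to 4. Hnf4a, Serpina1a, Cps1 and Tat had none in any library. Endothelial, stellate and fibroblast, and lymphocyte and neutrophil markers (6 genes each) had no peak in any library, and 1 gene each of the cholangiocyte, macrophage and erythroid lists had one in 1 to 3 libraries. The part of these cell types in the kinesin results was not tested.

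Taking the 10 libraries together, most kinesin genes had a called gene-end peak. A gene-end peak was called in at least 1 library for 33 of the 46 kinesins (71.7%), where the share over all protein-coding genes was 42.6%. Mitotic kinesins were called most often, 14 of 15 (93.3%), then transport kinesins, 16 of 21 (76.2%), and the other kinesins least often, 3 of 10 (30%). The mitotic share matched that of 30 partner genes that build and control the spindle, 28 of 30 (93.3%), and the transport share was near that of 31 dynein, dynactin and adaptor genes, 22 of 31 (71.0%). Kif22 alone was called in all 10 libraries, where 2.27% of all genes were, and Kif3c alone in exactly 1 library, where 3.77% of all genes were. Most of the Kif22 calls lay at an end shared with Maz.

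**Figure D1:**
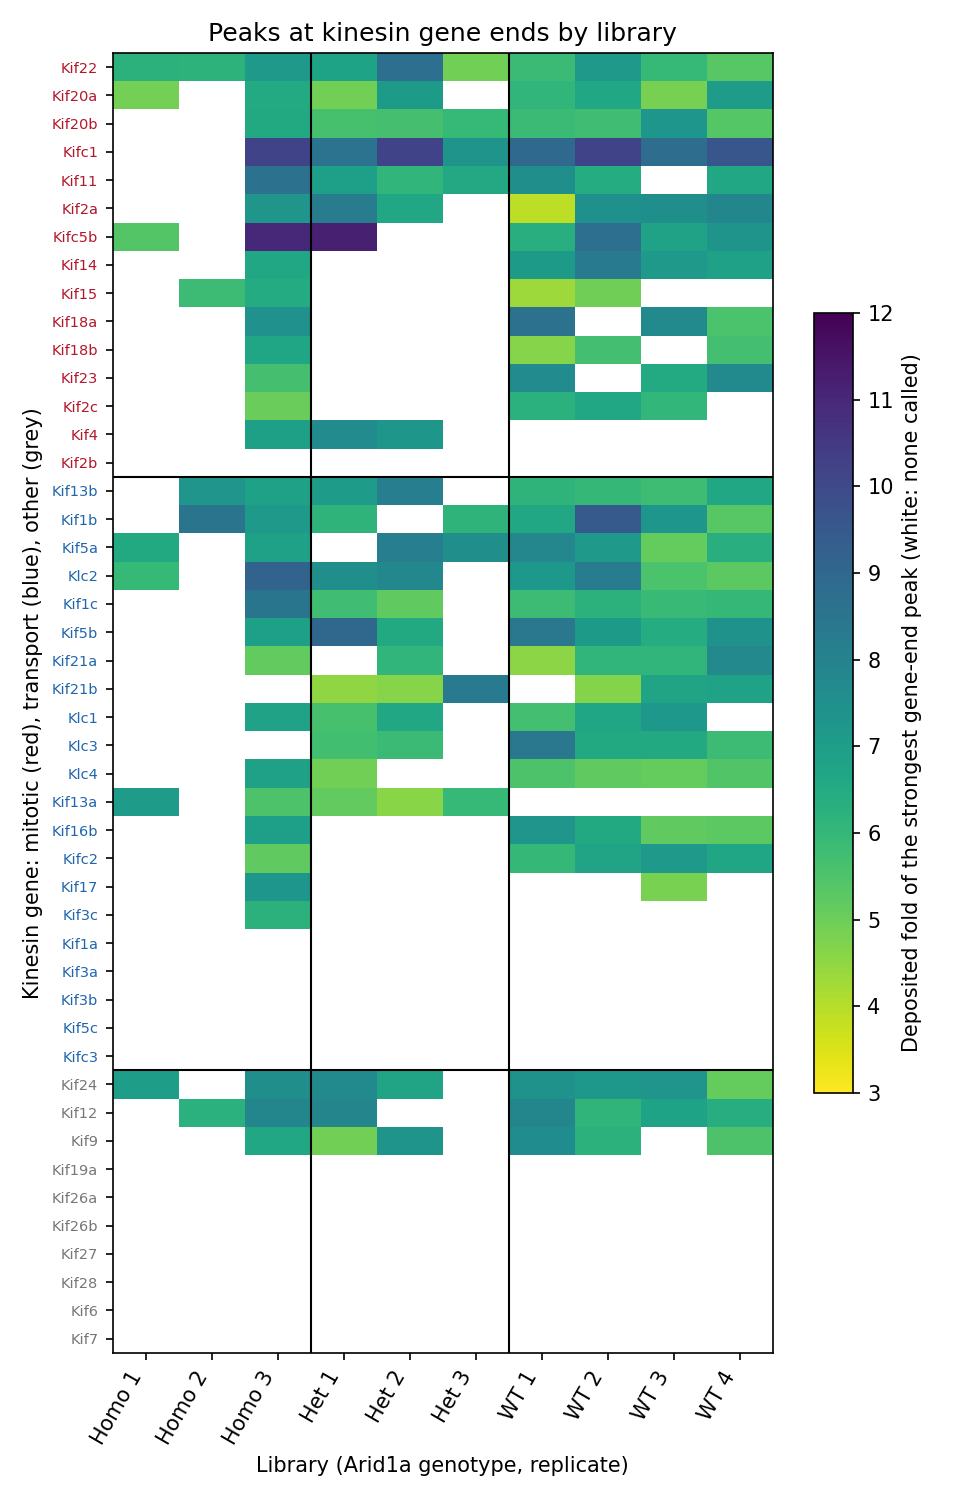
Each row is a kinesin gene (mitotic in red, transport in blue, other in grey) and each column a library, ordered Homo, Het and WT. Colour gives the deposited fold of the strongest gene-end peak and white means that none was called; the Homo 1 and Homo 2 columns hold 7 and 5 coloured cells, Homo 3 holds 31, and the WT columns hold 26 to 28.

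The number of kinesins called ranged from 5 to 31 within the Homo group alone, wider than the 8 to 28 over the Het and WT libraries. Homo 1, Homo 2 and Homo 3 had a peak at 7, 5 and 31 kinesins, Het 1, Het 2 and Het 3 at 21, 19 and 8, and WT 1 to WT 4 at 28, 27, 26 and 26. As shares of the 46 genes these are 15.2%, 10.9% and 67.4% in Homo, 45.7%, 41.3% and 17.4% in Het, and 60.9%, 58.7%, 56.5% and 56.5% in WT. The WT libraries were alike, the 3 Het libraries and 2 of the Homo libraries lay below all of them, and Homo 3 lay above all of them. Over all protein-coding genes the shares were 15.9%, 6.79% and 37.0% in Homo, 24.1%, 19.9% and 10.5% in Het, and 35.8%, 32.8%, 28.0% and 33.9% in WT. Kinesins had 1.6 to 2.08 times the share of all genes in 9 libraries and 0.955 times in Homo 1.

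Group means of the kinesin share were 31.2% ± 31.5 in Homo (SD, n = 3), 34.8% ± 15.2 in Het (n = 3) and 58.2% ± 2.08 in WT (n = 4), beside 19.9% ± 15.5, 18.2% ± 6.99 and 32.6% ± 3.33 for all genes. Without Homo 3 the Homo mean was 13% for kinesins and 11.4% for all genes. The Homo-minus-WT difference was -27.0 points for kinesins and -12.7 points for all genes. Without Homo 3 it was -45.1 points for kinesins, and for all genes the Homo mean of 11.4% stood beside 32.6% in WT. Scaling every peak to the depth of the shallowest library gave 23.9% ± 20.7 in Homo, 33.3% ± 14 in Het and 39.1% ± 7.74 in WT, beside 15.3%, 17.7% and 24.0% for all genes. The Het-minus-WT difference was then -5.8 points for kinesins and -6.3 points for all genes, where in the deposited lists it was -23.4 and -14.5 points. Homo minus WT at equal depth was -15.2 points for kinesins and -8.6 points for all genes. With the 1748 strongest peaks of each library the shares were 10.1% ± 3.32 in Homo, 15.9% ± 1.26 in Het and 9.24% ± 2.74 in WT, beside 7.17%, 7.13% and 7.4% for all genes. The Het-minus-WT difference was then 6.7 points for kinesins and -0.3 points for all genes, so the direction of the kinesin difference turned when lists of equal length were compared. Without Homo 3 the Homo mean was 12% at equal depth and 8.7% at equal list length.

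**Figure D2:**
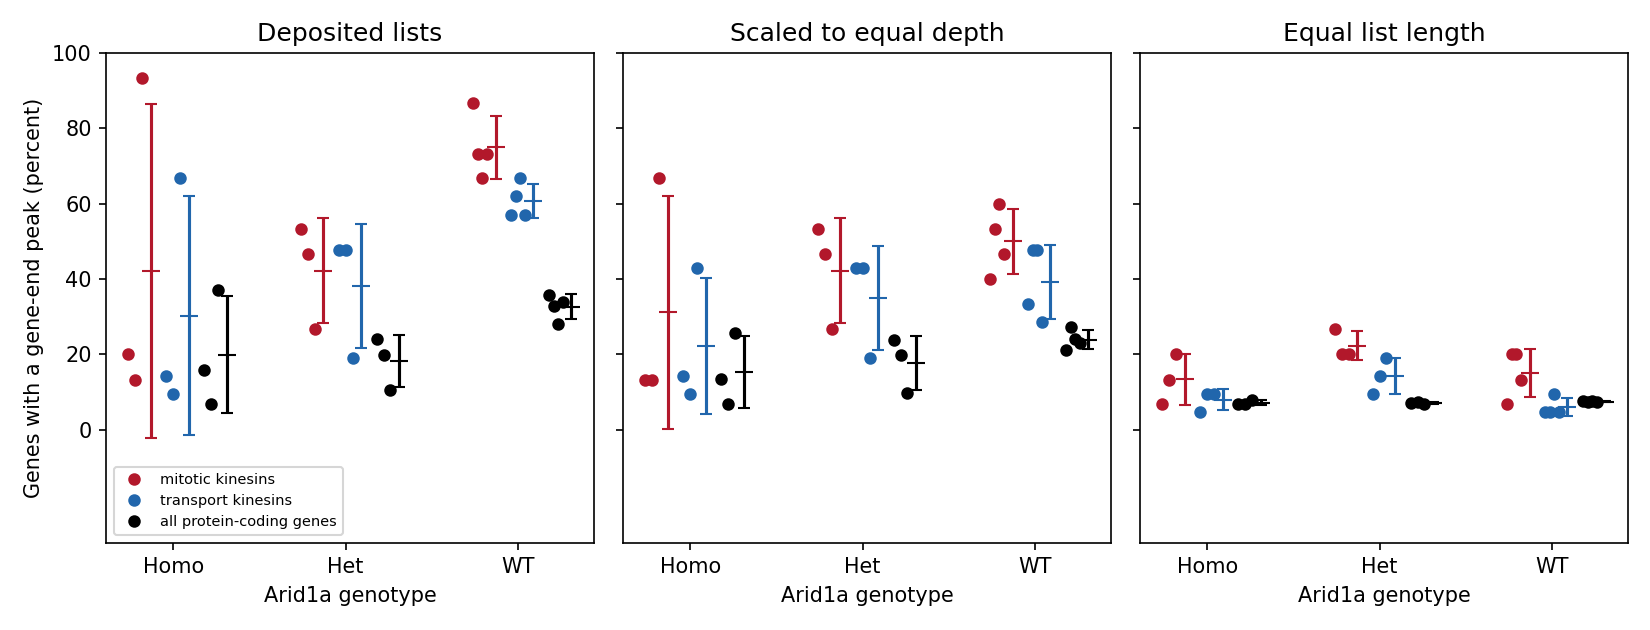
The vertical axis is the percent of genes with a gene-end peak; points are libraries, and the bar beside them is the mean with its SD (3 Homo, 3 Het and 4 WT libraries). The panels show the deposited lists, lists scaled to equal depth and the 1748 strongest peaks of each library; the 4 WT points stand above the Het points for mitotic and transport kinesins in the left panel, and the groups overlap or touch in the other panels.

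Mitotic kinesins were called at a higher share than transport kinesins in 8 of 10 libraries. Homo 1, Homo 2 and Homo 3 had 3, 2 and 14 of the 15 mitotic genes, Het 1 to Het 3 had 8, 7 and 4, and WT 1 to WT 4 had 13, 11, 10 and 11. For the 21 transport genes the counts were 3, 2 and 14 in Homo, 10, 10 and 4 in Het, and 12, 13, 14 and 12 in WT. The mitotic share averaged 42.2% ± 44.4 in Homo, 42.2% ± 13.9 in Het and 75.0% ± 8.39 in WT, and the transport share 30.2% ± 31.7, 38.1% ± 16.5 and 60.7% ± 4.56 in the same groups. Without Homo 3 the Homo means were 16.7% for mitotic and 11.9% for transport genes. The gap between them, mitotic minus transport, was 5.71, 3.81 and 26.7 points in Homo, 5.71, -0.952 and 7.62 points in Het, and 29.5, 11.4, 0.0 and 16.2 points in WT. Its group means, 12.1 ± 12.7 points in Homo, 4.13 ± 4.5 in Het and 14.3 ± 12.2 in WT, differed by about the spread between libraries or less, and without Homo 3 the Homo mean gap was 4.76 points. When peaks had to overlap the 300-base RefSeq promoter window, over the genes with such a window, mitotic and transport genes averaged 33.3% and 26.2% in Homo, 33.3% and 28.6% in Het, and 53.6% and 55.4% in WT. The mitotic mean was then still the higher one in Homo and Het and no longer in WT. By library this gap was 0.0, 7.14 and 14.3 points in Homo and 0.0, 0.0 and 14.3 in Het, there from Het 3 alone. In WT 1 to 4 it was 7.14, 0.0, -21.4 and 7.14 points. All genes with a window averaged 19.6% in Homo, 17.6% in Het and 32.8% in WT. Kif14, Kif2c and Kif22 had gene-end calls in 4, 3 and 4 WT libraries but 0 in their windows. For Kif14 and Kif2c those calls lay at the upstream end of the gene, before the start site that sets the window. Kif3a had 3 WT calls in its window alone.

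Partner genes, like all genes, were called more often in each WT library than in any Het library in the deposited lists. Spindle partners with a gene-end peak numbered 6, 1 and 26 of 30 in Homo 1 to 3, 19, 15 and 5 in Het 1 to 3, and 23, 23, 22 and 24 in WT 1 to 4. Transport partners numbered 11, 1 and 21 of 31 in Homo, 11, 15 and 7 in Het, and 18, 19, 18 and 20 in WT. Their group means were 36.7% ± 44.1 in Homo, 43.3% ± 24.0 in Het and 76.7% ± 2.72 in WT for spindle partners, and 35.5% ± 32.3, 35.5% ± 12.9 and 60.5% ± 3.09 for transport partners, beside the 19.9%, 18.2% and 32.6% of all genes. Without Homo 3 the Homo means were 11.7% and 19.4%. At equal depth Het and WT overlapped in both lists: spindle partners ranged from 16.7% to 63.3% in Het and from 46.7% to 63.3% in WT, and transport partners from 22.6% to 48.4% in Het and from 35.5% to 51.6% in WT.

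The 33 kinesins with a gene-end peak held 217 distinct peaks, 200 to 989 bp long, with the authors' fold between 3.91 and 11.2 (median 6.54). The fold is the tag pileup at the summit over the local background, each plus 1, and it ranks peaks within a list. RefSeq promoter windows, from 250 bases before to 50 after a start site, were at hand for 36 kinesins (40 windows) and not for the other 10. At those genes 125 of 161 peaks overlapped the gene's own promoter window, with summits from -387 to 286 bp of the start site and a median of -66 bp. A promoter peak was called in at least 1 library for 25 of the 36 genes (69.4%), where the share over 17274 protein-coding genes with such a window was 43.2%. Median folds were 6.64 for 89 mitotic peaks, 6.21 for 103 transport peaks and 6.73 for 25 peaks of other kinesins. In 14 of the 33 genes the peak also lay at the end of another gene, and its call cannot then be given to the kinesin alone.

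The promoter windows of mitotic and transport genes held a cell cycle element at unequal shares, given here as a description with no test. Genes that peak late in the cell cycle often carry a CHR (cell cycle genes homology region), a short element bound by the DREAM and MuvB complexes that hold such genes silent in resting cells, usually with CCAAT boxes bound by NF-Y. The letters TTTGAA or TTCGAA were searched on both strands for the CHR and CCAAT for the CCAAT box, each match counted on its own. The promoters of 4 mitotic motors are shown because they hold a CHR close to the start site, with CCAAT (Kif11, Kif22 and Kif4) or without it (Kif20b), with CHR and CCAAT letters in capitals and all other bases in lower case, 5′ to 3′ on the gene's strand (RefSeq, GRCm38.p6). They are Kif11 (chr19:37376132-37376431, plus strand), the motor that pushes spindle poles apart; Kif20b (chr19:34922108-34922407, plus strand), which acts in cytokinesis; Kif22 (chr7:127042371-127042670, minus strand), a chromosome-arm motor; and Kif4 (chrX:100625815-100626114, plus strand), a chromokinesin of the central spindle.
Kif11: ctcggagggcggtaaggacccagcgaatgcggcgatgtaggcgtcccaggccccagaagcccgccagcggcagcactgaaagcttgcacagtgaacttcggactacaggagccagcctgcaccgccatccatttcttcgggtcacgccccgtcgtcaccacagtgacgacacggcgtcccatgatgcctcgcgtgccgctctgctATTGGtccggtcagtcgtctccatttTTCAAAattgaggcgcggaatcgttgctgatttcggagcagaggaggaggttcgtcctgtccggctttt
Kif20b: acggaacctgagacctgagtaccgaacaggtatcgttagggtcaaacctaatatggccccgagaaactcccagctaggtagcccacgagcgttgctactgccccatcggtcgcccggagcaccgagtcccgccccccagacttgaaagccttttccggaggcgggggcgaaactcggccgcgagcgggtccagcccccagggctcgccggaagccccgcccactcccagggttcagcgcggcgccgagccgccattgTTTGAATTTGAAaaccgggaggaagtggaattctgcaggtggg
Kif22: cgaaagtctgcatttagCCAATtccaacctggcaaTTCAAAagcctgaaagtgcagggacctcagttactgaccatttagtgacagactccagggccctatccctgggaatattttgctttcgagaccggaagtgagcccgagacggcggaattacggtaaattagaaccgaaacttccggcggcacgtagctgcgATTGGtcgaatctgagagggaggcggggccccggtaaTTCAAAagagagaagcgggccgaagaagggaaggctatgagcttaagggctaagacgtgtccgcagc
Kif4: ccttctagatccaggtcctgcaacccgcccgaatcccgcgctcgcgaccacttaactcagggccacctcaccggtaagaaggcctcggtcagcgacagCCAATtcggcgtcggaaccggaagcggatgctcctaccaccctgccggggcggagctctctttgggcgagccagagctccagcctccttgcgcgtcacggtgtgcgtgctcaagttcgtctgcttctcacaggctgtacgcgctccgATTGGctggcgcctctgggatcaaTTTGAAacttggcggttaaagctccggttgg

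A CHR stood in 11 of 15 mitotic promoter windows (73.3%) and in 1 of 16 transport windows (6.25%, Kif1a), and 17.2% of 21045 protein-coding windows held one. Spindle partners had it in 21 of 29 windows (72.4%) and transport partners in 4 of 32 (12.5%). Within 30 bp of the start site, a distance chosen after the positions were seen, 9 of 15 mitotic windows (60%) and no transport window held a CHR, and 2.76% of protein-coding windows did. Kif11 has one at -19, Kif22 at -17 with a further copy at -215, and Kif4 at 19, counted from the start site. Kif20b has 2 copies side by side at 7 and 13. CCAAT was in 60% of mitotic, 37.5% of transport and 38.5% of protein-coding windows, and the GC box GGGCGG in 53.3%, 81.2% and 46.7%. The E-box CACGTG, a sequence that MYC binds, was in no mitotic window and in 2 transport windows (12.5%, Kif1a and Klc4), and 7.91% of protein-coding windows held it. The median GC content was 62.3% in mitotic, 68.7% in transport and 56.7% in protein-coding windows, and the windows were not matched on base composition.

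**Figure D3:**
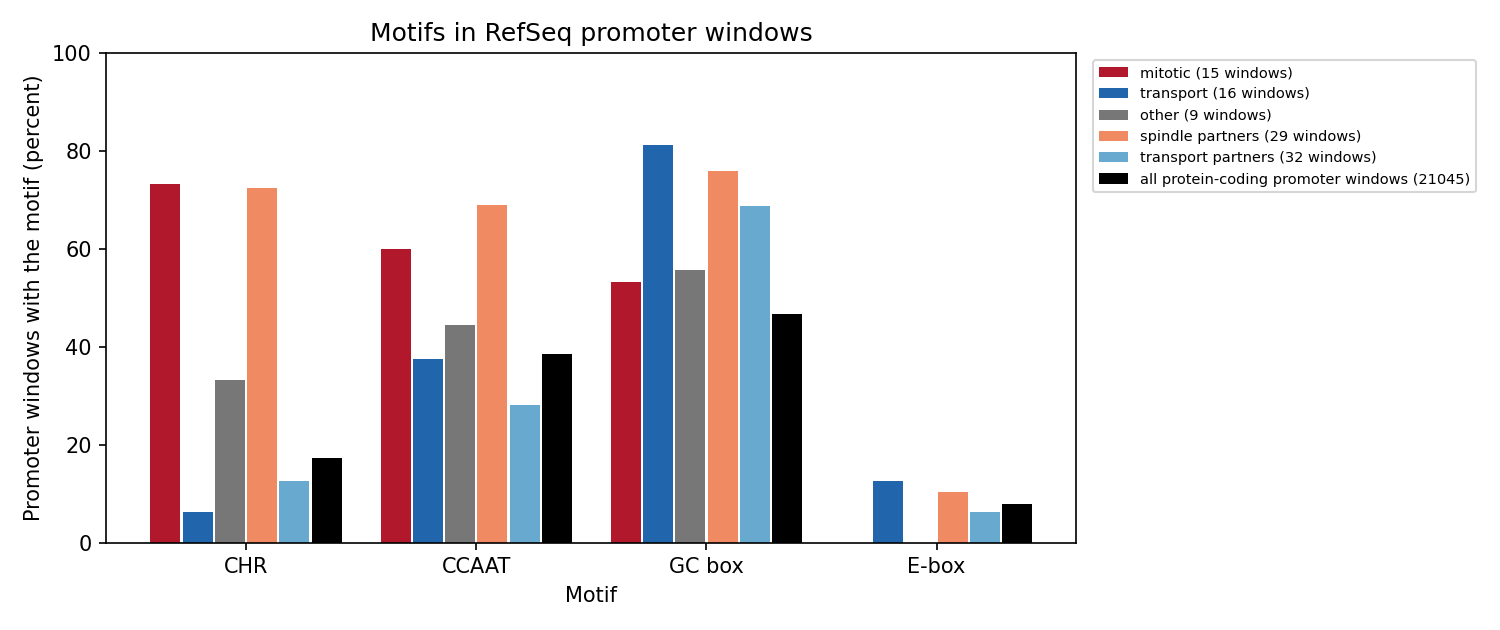
Bars give the percent of 300-base RefSeq promoter windows that hold each motif on either strand, for the kinesin groups, their partner lists and all protein-coding windows, with the number of windows in the legend. The CHR bars of mitotic kinesins (73.3%) and spindle partners (72.4%) stand far above transport kinesins (6.25%) and all windows (17.2%).

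Over the 10 libraries together, called peaks covered 11 of the 14 CHR sites in mitotic windows (78.6%), where 20.6% of the 4143 sites in protein-coding windows were covered. These sets of sites were not matched on distance from the start site or on whether the promoter had any peak. The 14 also count both adjoining Kif20b copies and the sites of the near-identical genes Kifc1 and Kifc5b. The gap is therefore not a measure of opening particular to mitotic CHR sites. By library, 0, 2 and 10 of the 14 were covered in Homo 1 to 3, 4, 5 and 4 in Het 1 to 3, and 8, 6, 5 and 7 in WT 1 to 4. The share of all sites covered was 3.67%, 1.5% and 17.0% in Homo, 7.53%, 5.62% and 2.63% in Het, and 15.0%, 13.4%, 9.22% and 13.5% in WT. Homo 3 and WT 1 had the most mitotic sites covered, and Homo 1 had none. The paired sites of Kif20b and the site of Kifc1 were inside a called peak in 8 libraries, Homo 3, all 3 Het and all 4 WT. The Kif11 site was covered in Homo 3, in Het 2 and Het 3, and in WT 1, WT 2 and WT 4. Kif23, Kif18b and Kifc5b sites were covered in 4 libraries each, all of them in Homo 3 and in 3 WT libraries, and the Kif4 and near Kif15 sites in 3 each. The Kif14 and Kif2c sites and the Kif22 copy at -215 were covered in none. Kif14 and Kif2c have their called peak at the upstream end of the gene, before the start site used for the window. Summits there lay at -1606 to -1542 bp of that start site for Kif14 and at -3871 to -3856 bp for Kif2c.

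Of the mitotic motors, 3 had a start-site peak in every Het library and in Homo 3, namely Kifc1, Kif20b and Kif11. Kifc1, a minus-end motor that bundles microtubules at spindle poles, had folds of 10.2 in Homo 3, of 8.56, 10.2 and 7.35 in Het 1 to 3, and of 8.94, 10.2, 8.8 and 9.59 in WT 1 to 4, with no peak in Homo 1 or Homo 2. Kif20b had 6.52 in Homo 3, 5.61, 5.67 and 5.98 in Het, and 5.86, 5.76, 7.26 and 5.36 in WT, and again none in Homo 1 or Homo 2. Kif11 had 8.6 in Homo 3, 6.91, 6.07 and 6.57 in Het, and 7.51, 6.44 and 6.65 in WT 1, WT 2 and WT 4. All 3 split the Homo libraries, called in Homo 3 and missing in the others, and Kif11 was also missing in WT 3. Kifc1 and Kifc5b are near-identical copies, so reads may have been divided between them and both are uncertain. Kifc5b had folds of 5.41 in Homo 1 and 11 in Homo 3, of 11.2 in Het 1, and of 6.31, 8.73, 6.8 and 7.35 in WT 1 to 4; some of its peaks lie at its far end, beside an end of Phf1.

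A further 6 mitotic genes of 15 were called in Homo 3 and at least 1 WT library but in no Het library, a pattern that 8.30% of all genes, 3 of 21 transport kinesins and 5 of 30 spindle partners also had. The pattern was chosen after the calls were seen and gets no test. Kif14 (chr1:136466301-136555938), a motor of the midbody needed for cytokinesis, had folds of 6.62 in Homo 3 and of 7.09, 8.26, 7.14 and 6.85 in WT 1 to 4. Kif18a, which dampens chromosome movement at the metaphase plate, had 7.43 in Homo 3 and 8.65, 7.73 and 5.56 in WT 1, WT 3 and WT 4, in a region shared with Mettl15. Kif18b, a motor of astral microtubule tips, had 6.67 in Homo 3 and 4.64, 5.7 and 5.69 in WT 1, WT 2 and WT 4. The groups overlap for all of these through Homo 3. Kif23, the motor of centralspindlin, had 5.67 in Homo 3 and 7.67, 6.5 and 7.69 in WT 1, WT 3 and WT 4. Kif2c, a microtubule depolymerase at centromeres, had 5.07 in Homo 3 and 6.25, 6.64 and 6.05 in WT 1, WT 2 and WT 3. Kif15, a spindle motor that can act beside Kif11, had 5.84 and 6.47 in Homo 2 and Homo 3 and 4.32 and 4.95 in WT 1 and WT 2, and its region is shared with 1110059G10Rik.

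Kif2a, a depolymerase of spindle poles, was called in Homo 3 (7.3), in Het 1 and Het 2 (8.2 and 6.59) and in all WT libraries (3.91, 7.48, 7.52 and 7.88). Kif20a, a cytokinesis motor whose end is shared with Brd8, was called in 8 libraries at folds from 4.83 to 7.08. Kif2b, whose role is in kinetochore microtubule turnover, had no gene-end peak in any library, and its nearest peak lay 887416 bp away. Kif2b was the 1 mitotic gene never called.

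Kif4 was the mitotic gene called in other groups but in no WT library. Its start-site peak had folds of 6.9 in Homo 3 and 7.66 and 7.25 in Het 1 and Het 2, and it was missing in Homo 1, Homo 2, Het 3 and WT 1 to 4. The region lies between Kif4 and Pdzd11, which share it, so the call belongs to both promoters. Presence in exactly these libraries was shared by 5 other genes, Agbl3, Dnajc24, Pdzd11, Tbp and Zfp940. Kif4 did not reach the threshold in any comparison (Fisher's exact test, adjusted over all genes).

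The calls of Kif22 in all 10 libraries came from both ends of the gene. In 9 libraries a peak lay at its far end, beside Maz, with folds of 6.21 and 7.12 in Homo 1 and Homo 3, of 6.77, 8.7 and 4.9 in Het 1 to 3, and of 5.85, 7.14, 5.98 and 5.34 in WT 1 to 4. That region is also at an end of Maz and, except in Homo 1 and WT 2, lay over the Maz promoter. These calls cannot be given to Kif22 alone. At the start site of Kif22 itself a peak was called in 2 libraries, Homo 2 (fold 6.17) and Homo 3 (6.49), and in no Het or WT library. Both of those peaks covered the CHR at -17.

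**Figure D4:**
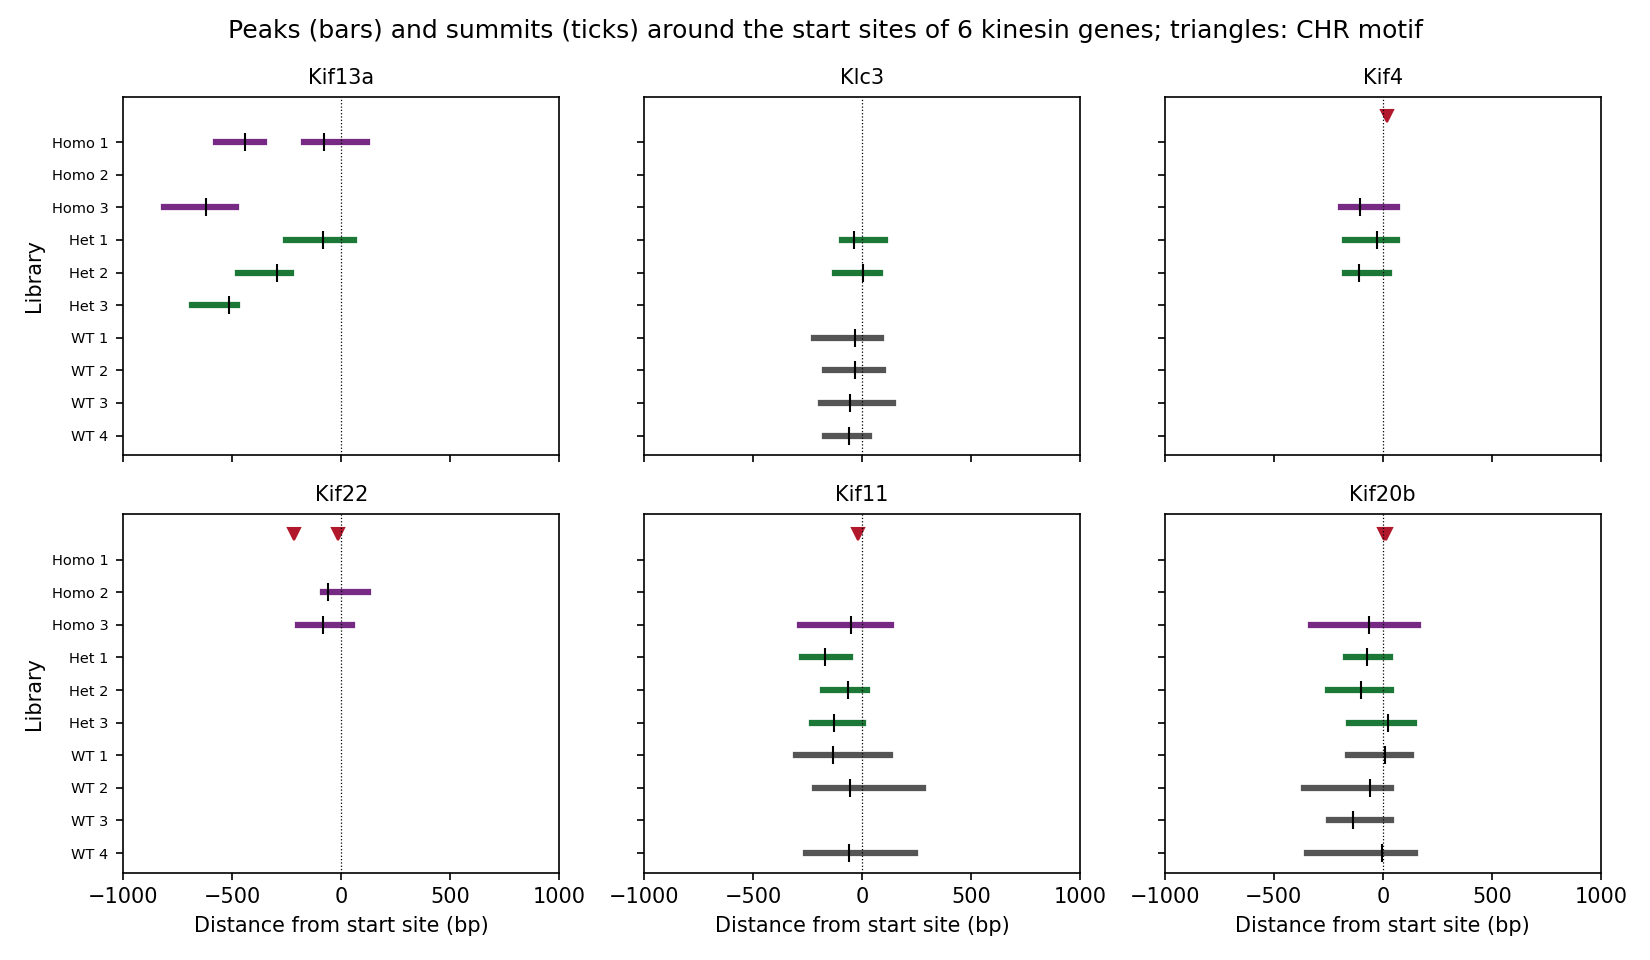
Horizontal bars are called peaks, ticks their summits and red triangles CHR letters, against the distance from the RefSeq start site in bp along the gene's strand, for 6 kinesins; rows are the libraries with Homo at the top, Het in the middle and WT at the bottom. Klc3 has no Homo bar, Kif13a and Kif4 have no WT bar, Kif22 has start-site bars in Homo 2 and Homo 3 only, and Kif11 and Kif20b have none in Homo 1 and Homo 2.

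Among transport kinesins, Kif13a was called in every Het and no WT library, and Klc3 in every WT and no Homo library. Both were called in Het 1 and Het 2. Their promoters are shown because of these patterns, with CCAAT in capitals as before (neither holds a CHR). Kif13a (chr13:46929669-46929968, minus strand) carries cargo of recycling endosomes, and Klc3 (chr7:19404055-19404354, minus strand) is a light chain that links the conventional motor to cargo.
Kif13a: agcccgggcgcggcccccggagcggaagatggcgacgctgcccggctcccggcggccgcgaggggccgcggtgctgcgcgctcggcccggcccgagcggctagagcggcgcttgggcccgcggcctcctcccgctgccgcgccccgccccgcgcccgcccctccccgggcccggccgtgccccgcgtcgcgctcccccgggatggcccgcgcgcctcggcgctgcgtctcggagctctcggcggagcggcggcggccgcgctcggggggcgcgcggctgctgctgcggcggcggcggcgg
Klc3: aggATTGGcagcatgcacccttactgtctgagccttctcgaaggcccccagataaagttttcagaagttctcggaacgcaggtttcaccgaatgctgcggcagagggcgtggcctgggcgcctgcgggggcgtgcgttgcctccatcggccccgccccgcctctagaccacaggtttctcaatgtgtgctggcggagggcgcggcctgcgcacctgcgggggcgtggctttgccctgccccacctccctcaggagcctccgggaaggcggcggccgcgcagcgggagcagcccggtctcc

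Kif13a was the 1 gene of all 21631 (0.00462%) called in every Het library and in no WT library. Its folds were 7.04 and 5.52 in Homo 1 and Homo 3 and 5.17, 4.59 and 5.98 in Het 1 to 3, and no peak was called in Homo 2 or in WT 1 to 4. The nearest WT peaks lay 20867 to 20924 bp from the gene. The called peaks were not 1 shared element: their summits lay at -79 and -443 bp in Homo 1, at -619 bp in Homo 3, and at -82, -297 and -516 bp in Het 1 to 3, and 3 of the 6 overlapped the promoter window, 86.7% of whose bases are G or C. Ranked by −log10 p within their own lists, where a percentile of 0 is the weakest peak, the Het peaks stood at percentiles 7.76, 1.47 and 50.7. Fisher's exact test gave p = 0.0286 and adjusted p = 0.533 (3 of 3 Het and 0 of 4 WT libraries), which did not pass. With a −log10 p of at least 10, after scaling to equal depth, with lists of equal length, or counting only promoter windows, Kif13a no longer had this pattern. Without Het 3, Kif4 had it too (0.0416% of all genes). No other gene had its set of libraries.

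Klc3 was the 1 kinesin present in all WT and absent from all Homo libraries (2.17% of kinesins, where 0.129% of all genes had this pattern). Its folds were 5.71 and 5.88 in Het 1 and Het 2 and 8.38, 6.55, 6.52 and 5.82 in WT 1 to 4, and no peak was called in Homo 1 to 3 or in Het 3. The summits lay at -39 and 6 bp in Het and at -33, -33, -57 and -61 bp in WT, at 1 place beside the start site. Fisher's exact test of Homo against WT gave p = 0.0286 and adjusted p = 0.582. The same set of libraries was found for 5 other genes, Arhgef17, Bbc3, Haspin, Htd2 and Rpp14, and Haspin, a mitotic kinase of the spindle partner list, was the 1 partner with the WT-not-Homo pattern. After scaling to equal depth Klc3 lost the pattern and Kifc2 had it instead (0.296% of all genes), and with lists of equal length no kinesin had it. Without Homo 3, the WT-not-Homo pattern held 11 kinesins (9.67% of all genes had it), namely Kif14, Kif16b, Kif1c, Kif20b, Kif21a, Kif2a, Kif5b, Kifc1, Kifc2, Klc3 and Klc4. No kinesin was called in every Homo and no WT library, a pattern that 0.00462% of all genes had; without Homo 2, Kif13a had it (0.0832% of all genes). Without WT 1, Kif21b joined Klc3 (0.217% of all genes).

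In Het against WT, 3 kinesins were present in all WT and absent from all Het libraries, Kif14, Kif16b and Kifc2 (6.52% of kinesins, where 2.20% of all genes had this pattern). Kif16b (chr2:142618340-142901609), which moves early endosomes, had folds of 6.92 in Homo 3 and of 7.31, 6.54, 5.19 and 5.26 in WT 1 to 4, with summits within 97 bp upstream of the start site. Kifc2 (chr15:76659784-76668196), a minus-end motor known from neurons, had 5.2 in Homo 3 and 6.02, 6.73, 7.18 and 6.72 in WT, in a region that also lies at an end of Cyhr1. The set of libraries of each of these 3 genes, Homo 3 and WT 1 to 4, was that of 313 other genes, the other two among them. Partner genes with the WT-not-Het pattern were Bub3, Cdca8 and Espl1 of the spindle list and Arl8b, Dctn1 and Trak1 of the transport list. Each of the 3 kinesins had p = 0.0286 and adjusted p = 0.533 (Fisher's exact test). After scaling to equal depth Kifc2 was the 1 kinesin with the pattern (0.569% of all genes), and with lists of equal length there was none. With −log10 p of at least 10, Kif16b lost it, and Kif1c and Klc3 had it beside Kif14 and Kifc2 (2.61%). Counting only promoter windows left Kif16b (1.88%), where Kifc2 has no window and Kif14 has its peak outside its own. Counting only regions at the end of 1 gene, Kifc2 lost it (1.5%). Without Het 1, Kif12, Kifc5b and Klc4 joined the 3 (5.70% of all genes), and without WT 2, Kif18a and Kif23 did (2.7%).

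Kif21b (chr1:136131390-136178001), a motor of the kind that pauses microtubule growth in neurons and lymphocytes, was the 1 kinesin called in every Het and no Homo library (0.0139% of all genes). Its folds were 4.5, 4.64 and 8.25 in Het 1 to 3 and 4.67, 6.76 and 6.83 in WT 2 to 4, with none in Homo 1 to 3 or in WT 1. Homo 3 had a peak inside the gene body at a fold of 7.52. No kinesin was called in every Homo and no Het library, where 0.139% of all genes were. Without Homo 3, Kif11, Kif20b and Kifc1 joined Kif21b (1.35% of all genes), without Het 3, Klc3 did (0.116%), and without Homo 1, Kif15 was called in every Homo and no Het library (0.425%). With −log10 p of at least 10, at equal depth or at equal list length, Kif21b no longer had the pattern. With 3 against 3 libraries the smallest possible p is 0.1, so no gene could pass. Its relative Kif21a was called in Homo 3 (5.16), Het 2 (6.06) and WT 1 to 4 (4.55, 6.09, 6.09 and 7.78), in a region shared with Gm52215.

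The conventional kinesin motor, which moves organelles and vesicles with the light chains, was represented by Kif5b, the form found in most tissues, and Kif5a, a neuronal form. Kif5b had folds of 6.93 in Homo 3, of 9.0 and 6.54 in Het 1 and Het 2, and of 8.38, 7.09, 6.42 and 7.36 in WT 1 to 4. Kif5a was called in 8 libraries at folds from 5.12 to 8.15, in a region over the promoter of Dctn2, so the call cannot be given to Kif5a. Kif5c, a further neuronal form, had no gene-end peak, and its nearest peak lay 166992 bp away. Of the light chains, Klc4 had 6.85 in Homo 3, 4.92 in Het 1 and 5.5, 5.2, 5.14 and 5.45 in WT 1 to 4, beside Mrpl2. Klc1 was called in 6 libraries at 5.61 to 7.2 and Klc2 in 8 libraries at 5.28 to 9.14, partly at an end shared with Rab1b. The 4 light chains together were called at 1, 0 and 3 genes in Homo, 4, 3 and 0 in Het, and 4, 4, 4 and 3 in WT.

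Of the motors of the Kif1 and Kif13 kind, which carry vesicle precursors, Kif1c had folds of 8.49 in Homo 3, of 5.75 and 5.19 in Het 1 and Het 2, and of 5.83, 6.21, 5.9 and 6.02 in WT 1 to 4. That region is shared with Inca1 and lies over its promoter, so the call cannot be given to Kif1c alone. Kif1b was called in 8 libraries at 5.33 to 9.45 and Kif13b in 8 libraries at 5.8 to 8.15. These were the 2 transport motors with a call in Homo 2, whose other calls were Kif22, Kif15 and Kif12. Kif1a, a neuronal motor, had no gene-end peak, and its nearest lay 80435 bp away. Kif17, a motor of cilia and dendrites, was called in Homo 3 (7.28) and WT 3 (4.82). Kif3c, of the same kind, was called in Homo 3 alone, at a fold of 6.2.

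Kif3a, which with Kif3b forms the motor of intraflagellar transport, was outside the 1000 bp limit although a peak lay over its promoter. A peak over its RefSeq promoter window was called in Homo 3 (fold 8.72) and in WT 1, WT 3 and WT 4 (8.75, 7.58 and 8.44), at 1455 to 1533 bp from the gene end. The nearest peak outside the 1000 bp was that of Kif16b in Homo 1, at 1365 bp, and the farthest counted as inside was that of Kif12 in Homo 2, at 768 bp. Kif3b had no gene-end peak, with the nearest at 12033 bp, and Kifc3, a minus-end motor of cell junctions, had peaks inside its gene body in Homo 3 and in WT 1, WT 2 and WT 4.

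Of the other kinesins, Kif24, which restrains cilium formation at the mother centriole, was called in 8 libraries at folds of 5.14 to 7.69, in a region shared with Nudt2. Kif12 was called in 7 libraries at 6.12 to 7.92, in each of them at its far end and in 4 also at its start site, and Kif9, a motor of motile cilia, in 6 libraries at 4.91 to 7.62, beside Klhl18. Kif27, a relative of the Hedgehog pathway motor Kif7, had no gene-end peak but a peak inside the gene in 7 libraries, 5347 bp or more from an end. Kif6, Kif7, Kif19a, Kif26a, Kif26b and Kif28 had no gene-end peak, and among these a peak inside the gene was called for Kif26a in WT 4.

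Homo 1 and Homo 2 had peaks at largely different kinesins. Homo 1 had Kif5a, Kif13a, Kif20a, Kif22, Kif24, Kifc5b and Klc2, and Homo 2 had Kif1b, Kif12, Kif13b, Kif15 and Kif22. Of the 7 and the 5, Kif22 was the 1 in common (14.3% of the Homo 1 and 20% of the Homo 2 set), while over all genes 989 were in common (28.7% of 3445 and 67.3% of 1469). Even at Kif22 the peaks stood at opposite ends of the gene. Homo 3 contained all 7 and all 5.

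Across all genes no comparison gave a gene with an adjusted p under 0.05 (two-sided Fisher's exact test of presence, Benjamini-Hochberg adjustment over 9150, 8888 and 8533 genes with a gene-end peak in Homo against WT, Het against WT and Homo against Het). At an unadjusted p under 0.05 there were 29 genes in Homo against WT, of which 1 was a kinesin (Klc3), 476 in Het against WT, of which 4 were kinesins (Kif13a, Kif14, Kif16b and Kifc2), and 0 in Homo against Het. The smallest adjusted p was 0.582, 0.533 and 1.0 in the same order. With 3 and 4 libraries this exact test cannot go below p = 0.0286, which 1 gene alone cannot keep under 0.05 after adjustment over this many genes.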

How the data were processed

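The 10 ATAC-seq libraries (3 Homo, 3 Het and 4 WT liver tumours) were grouped by their titles. The submitters' processing notes name mm10, Bowtie2 (an aligner), MACS2 (a peak caller) and deepTools, without versions. The authors deposited 1 peak list per library. Each deposited row holds a score, a fold (a ratio of summit pileup to background), −log10 p and −log10 q values, and the summit's offset from the peak start. Read counts, peak calling settings and the shift of reads for the transposase were not stated in the sources used; without the shift, positions could move by a few bases.

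Peaks were placed within 1000 bp of either end of 21631 protein-coding genes (RefSeq table for GRCm38.p6, which shares its chromosome coordinates with mm10) with Python 3.11.15, pandas 2.3.3 and numpy 2.4.6. A whole summit pileup and background that return the deposited fold and −log10 p within 0.001 were found for 99.94% of rows, and the lowest background found in 10 or more rows served as depth. Presence was tested per gene with Fisher's exact test (scipy 1.17.1) and Benjamini-Hochberg adjustment; shares over the kinesins were described without a test. Fisher and pattern steps were tested on simulated data.

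Alternatives were windows of 500 and 2500 bp, the summit within the window, −log10 p of at least 10, scaling to equal depth (−log10 p of at least 5 kept), the 1748 strongest peaks, each library left out, changed kinesin groups and a replicate block; promoter windows alone and regions at 1 gene alone were added after seeing the data. Individual values are given for kinesins called in every library of 1 group and none of another, in all 10 or exactly 1 library, or, for mitotic and transport genes, with shares of libraries at least 2/3 apart. The members, lists and tests were chosen with earlier results of these data known. Kif25, on the list of other kinesins, is not in the table used. Precision is limited by the number of libraries.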

Additional observations from a re-analysis of the deposited data

Results flagged for a closer look

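Among the 10 kinesins outside the mitotic and transport groups, WT 3 stood apart from the other WT libraries with a gene-end peak at 2 genes, where WT 1, WT 2 and WT 4 each had 3 (Kif9, Kif12 and Kif24; WT 3 lacked Kif9). The difference is 1 gene, and chance marks about 1 in 20 groups in this way.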

How the results depend on the processing

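Windows of 500 and 2500 bp and the summit within the window moved no kinesin result by more than the spread between libraries, and no alternative gave a gene with an adjusted p under 0.05. For the kinesin share, equal list length gave 0.9 points for Homo minus WT (-27.0 as reported) and 6.7 points for Het minus WT (-23.4 as reported, -5.8 at equal depth). Leaving out 1 library gave -45.1 to -16.8 points for Homo minus WT, -28.8 to -14.7 for Het minus WT and -21.7 to 6.5 for Homo minus Het (-3.6 as reported). For the mitotic-minus-transport gap, Het minus WT was 6.5 points with promoter windows alone (-10.2 as reported), and Homo minus Het was -8.9 with −log10 p of at least 10 and -2.5 at equal list length (7.9 as reported); Homo minus WT was -2.2, with 8.9 for promoter windows alone, 1.1 with 2500 bp windows, -10.6 with −log10 p of at least 10, -9.2 without the light chains, -8.8 with regions at 1 gene alone and -3.7 at equal list length, all of them less than the spread between libraries away from it. The settings not named here gave -16.7 to -1.1 for Het minus WT and 1.6 to 10.5 for Homo minus Het. Leaving out 1 library gave -9.5 to 2.9, -14.9 to -5.1 and 0.6 to 12.1 for Homo minus WT, Het minus WT and Homo minus Het. Kinesins called in every library of one group and none of the other numbered 1 for Homo against WT (Klc3; 1 at equal depth, there Kifc2, and 0 at equal list length, 1 to 11 with 1 library left out), 4 for Het against WT (1 at equal depth, 0 at equal list length, 1 with promoter windows alone, 4 to 7 with 1 left out) and 1 for Homo against Het (0 with −log10 p of at least 10, 0 at equal depth, 0 at equal list length, 0 with promoter windows alone, 1 to 4 with 1 left out). The cause was not tested. Kif21b, the kinesin counted for Homo against Het, has no promoter window, so it could not be counted with promoter windows alone. Same-numbered libraries had correlations of their deviations of -0.1 to 0.02, and differently numbered ones of -0.04 to 0.11. Correlations this small cannot show whether a number marks a shared batch, and the numbers were not used to pair libraries in the main tests. With the replicate block the genes past the threshold stayed at 0 in each comparison, and its smallest possible p is 0.25. Depth limits what a missing call can show, least in WT 1 and most in Homo 2, the shallowest library. Weak kinesin peaks below the threshold in Homo 2 were not detectable. The number of called kinesins did not follow depth alone. Homo 1 was deeper than every Het library, yet fewer kinesins were called in it than in any of them. Among the Het libraries, Het 3 was the deepest and had the fewest. After scaling to equal depth, the kinesin share of Homo 1 stayed below that of every Het and WT library. That of Homo 3 stayed above every WT library. What else set these numbers was not tested.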
